A study of Mus musculus with 8 samples.

Results

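Oxidative phosphorylation is the last stage of cell respiration, carried out in the inner membrane of mitochondria by 5 protein complexes. Complex I takes electrons from NADH and complex II from succinate, complex III passes them to cytochrome c, complex IV reduces oxygen, and complex V (ATP synthase) uses the proton gradient so formed to make ATP. The measurements here cover 86 genes of these complexes among 18193 genes in the long bones of Hyp and wild-type (WT) mice. A gene was taken where a probe set was annotated to that 1 gene symbol and the symbol began with Ndufa, Ndufb, Ndufc, Ndufs, Ndufv, Sdh, Uqcr, Cox4, Cox5, Cox6, Cox7, Cox8 or Atp5, with the Ndufaf assembly factors left out. The rule itself is by name and sets no condition on a measured value. It gave 34 genes of complex I, 4 of complex II, 8 of complex III, 19 of complex IV and 17 of complex V. The remaining 4 are the Sdhaf genes, assembly factors of complex II that share the Sdh prefix and are not subunits. Ndufa4, which is counted here with complex IV, and its paralogue Ndufa4l2 carry a name given when they were assigned to complex I.

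Each of the 8 microarrays carried RNA from tibia and femur of male mice at an age of 12 days, with 2 bone samples pooled per RNA, 4 arrays of Hyp and 4 of WT. The Hyp mice lack the 3′ end of Phex, a gene for a membrane endopeptidase of osteoblasts and osteocytes, on a C57BL/6 background; the strain of the WT mice is labelled only as wild type. All mice had the same standard diet. The deletion is present in every cell and not in 1 cell type. How many animals gave each RNA is not stated, so a p-value here is set against the spread of the RNA samples, which may be smaller than that of animals. In whole bone, fewer cells of a type and less RNA per cell cannot be told apart.

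The values are on the log2 scale and were centred so that each probe set has a median of 0 over the 8 arrays. They show how arrays differ from each other. The abundance of a subunit and the presence of bone markers cannot be read from them. The check of the labels is Phex itself, whose 2 probe sets were at 3.72 to 4.00 and 2.03 to 2.96 in the WT arrays and at -4.93 to -3.72 and -2.74 to -2.03 in the Hyp arrays. Of the marker lists, the mean of 9 osteoblast genes was between -0.27 and -0.10 in Hyp and between 0.14 and 0.28 in WT (7 fell and 1 rose). Among macrophage genes 8 of 12 rose, with a mean of 0.22 to 0.35 in Hyp and -0.34 to -0.19 in WT, and 7 of 11 erythroid genes rose (0.028 to 0.17 and -0.32 to -0.13), as did 6 of 10 cartilage genes (0.044 to 0.54 and -0.56 to -0.15). In the osteoclast list 1 of 13 genes fell, in the neutrophil list 1 of 9 rose, and in the adipocyte list 1 of 7 rose and 1 fell. The mean of 32 skeletal muscle genes was 1.69 in WT replicate 3 and -0.82 in Hyp replicate 2, against -0.38 to 0.21 in the other arrays. The part of these cell types in the differences below was not tested, except for muscle, whose mean was also used as a covariate. With it, 6 of the 9 genes called lower below still passed. They are 6.98% of the 86 genes, beside 5.68% of all genes that were lower in that fit. Ndufa3, Ndufb6 and Atp5g1 did not pass (limma adjusted p = 0.0672, 0.0673 and 0.0554). The Hyp minus WT differences of these 3 were -0.172, -0.185 and -0.188 with the covariate and -0.179, -0.176 and -0.197 without it.

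Nuclear genes of the respiratory chain are known to be controlled by factors that include NRF1, GABPA (an ETS factor), the oestrogen-related receptors (ERR) and YY1. The promoter table from RefSeq (GRCm38.p6) gave 300 bases around the start (250 before, 50 after) for 71 of the 86 genes. The letters GCGCANGCG of the NRF1 site were found on either strand in 20 of 71 promoters (28.2%), against 11.5% of the 14368 measured genes in the table. AAGATGGC, of the YY1 site, was in 12.7% against 4.08%, and AAGGTCA, of the ERR site, in 11.3% against 4.61%. CCGGAAGT, of the ETS site, was in 7.04% against 6.65%. The NRF1 letters were in 3 of the 8 genes with a promoter that were lower in Hyp bone and in 17 of the 63 others. No motif contains another. A match is a description of the letters and not a site.

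The 5 upstream sequences below are examples. They come from 3 genes that were lower in Hyp bone (Sdhaf4, Ndufa5 and Ndufa1) and 2 complex IV genes that did not pass. Cox6a1 is expressed in most tissues, and Cox7a1 is the heart and muscle form of another subunit, whose widely expressed form is Cox7a2. The sequences are the 250 bases before the start in GRCm38.p6, 5′ to 3′ on the gene's strand, with any match to the 4 motifs in capitals. Sdhaf4 lies at chr1:24005641-24005890, minus strand, Ndufa5 (the more upstream of its 2 starts) at chr6:24527691-24527940, minus strand, and Ndufa1 at chrX:37191239-37191488, minus strand. Cox6a1 lies at chr5:115348959-115349208, minus strand and Cox7a1 at chr7:30183921-30184170, plus strand. The capitals in Sdhaf4 and Ndufa5 mark 1 NRF1 match each and those in Cox6a1 3 matches, of which 2 overlap. Ndufa1 and Cox7a1 hold none of the 4 in this window. In the same window none was found in Cox7a2, Cox8a, Cox6b1, Cox5a, Cox5b, Cox7c or Ndufa4 of complex IV. Nor was any found in Ndufa3, Ndufb6, Atp5e, Atp5g1 or Atp5o, the other lower genes with a promoter. The shares above used the full 300 bases, and some matches lie outside the shorter window. In the 300 bases Atp5o holds an NRF1 match, Atp5e an ERR match and Ndufa3 a YY1 match. Sdhaf4 holds a further NRF1 match there and Cox8a holds 2 ETS matches.
Sdhaf4: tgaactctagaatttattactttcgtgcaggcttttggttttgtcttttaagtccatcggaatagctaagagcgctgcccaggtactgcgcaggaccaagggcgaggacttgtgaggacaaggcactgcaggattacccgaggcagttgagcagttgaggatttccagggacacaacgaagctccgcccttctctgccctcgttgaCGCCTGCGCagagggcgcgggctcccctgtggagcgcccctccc
Ndufa5: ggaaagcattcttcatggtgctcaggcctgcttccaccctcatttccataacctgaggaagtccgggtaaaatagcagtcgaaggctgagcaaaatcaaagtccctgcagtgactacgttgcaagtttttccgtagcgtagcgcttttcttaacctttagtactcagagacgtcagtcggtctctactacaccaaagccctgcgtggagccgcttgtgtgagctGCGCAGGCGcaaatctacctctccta
Ndufa1: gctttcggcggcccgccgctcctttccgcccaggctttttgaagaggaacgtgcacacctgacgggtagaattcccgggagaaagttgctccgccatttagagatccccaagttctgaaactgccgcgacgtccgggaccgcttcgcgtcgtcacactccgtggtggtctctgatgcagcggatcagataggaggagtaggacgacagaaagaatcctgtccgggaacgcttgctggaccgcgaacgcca
Cox6a1: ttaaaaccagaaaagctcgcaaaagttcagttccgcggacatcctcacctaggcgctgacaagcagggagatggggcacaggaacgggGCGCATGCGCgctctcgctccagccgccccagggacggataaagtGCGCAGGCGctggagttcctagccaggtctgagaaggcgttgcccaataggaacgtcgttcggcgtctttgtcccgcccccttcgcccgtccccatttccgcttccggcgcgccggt
Cox7a1: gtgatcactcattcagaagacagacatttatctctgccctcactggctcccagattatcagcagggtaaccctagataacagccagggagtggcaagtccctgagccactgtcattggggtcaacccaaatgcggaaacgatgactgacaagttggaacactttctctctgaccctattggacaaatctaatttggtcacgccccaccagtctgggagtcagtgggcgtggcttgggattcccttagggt

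The comparison of Hyp with WT asks which genes differ in bone that lacks Phex. Of the 86 genes, 9 were lower in Hyp bone, none was higher and 77 did not pass (limma, adjusted p under 0.05 over all 18193 genes). The 9 are Ndufa1, Ndufa2, Ndufa3, Ndufa5 and Ndufb6 of complex I, Sdhaf4, and Atp5o, Atp5e and Atp5g1 of complex V. They make 10.5% of the 86, beside 6.32% of all genes that were lower, 6.54% that were higher and 12.9% in either direction. At an unadjusted p under 0.05, 20 of the 86 were lower and 3 higher, where 11.5% of all genes were lower and 15.9% higher. These shares of all genes are the background for each count at an unadjusted p given below. For each count past the adjusted threshold in the fit of all 8 arrays without a covariate, the background is 6.32% lower and 6.54% higher. This holds for the lists above and below. The 10.5% of the 86 is above the 6.32% of all genes, but whether it differs from it was not tested. The 8 subunits among the 9 make 9.76% of 82.

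The 9 genes fell by 0.18 to 0.27 on the log2 scale, so Hyp values were 0.832 times WT for Ndufa1 and 0.885 times for Ndufb6, at the ends of this range. The median over all 86 was -0.050, where the median over all genes was 0.025. Below 0 were 57 of the 86, where 42% of all genes were below 0. In 17 genes every Hyp array was below every WT array (8.89% of all genes) and in 3 every Hyp array was above (10.3% of all genes). For 60 of the 86 genes the whole 95% interval of the difference was within 1.2-fold in either direction, as it was for 10363 of all 18193 genes. The median of the 86 values was 0.0016, 0.027, 0.040 and 0.017 in WT replicates 1 to 4 and -0.013, -0.0017, -0.053 and -0.0082 in Hyp replicates 1 to 4. Every Hyp array was below every WT array in it, while the medians over all genes ran the other way, from -0.013 to -0.0022 in WT and from 0.0032 to 0.0095 in Hyp.

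**Figure D1:**
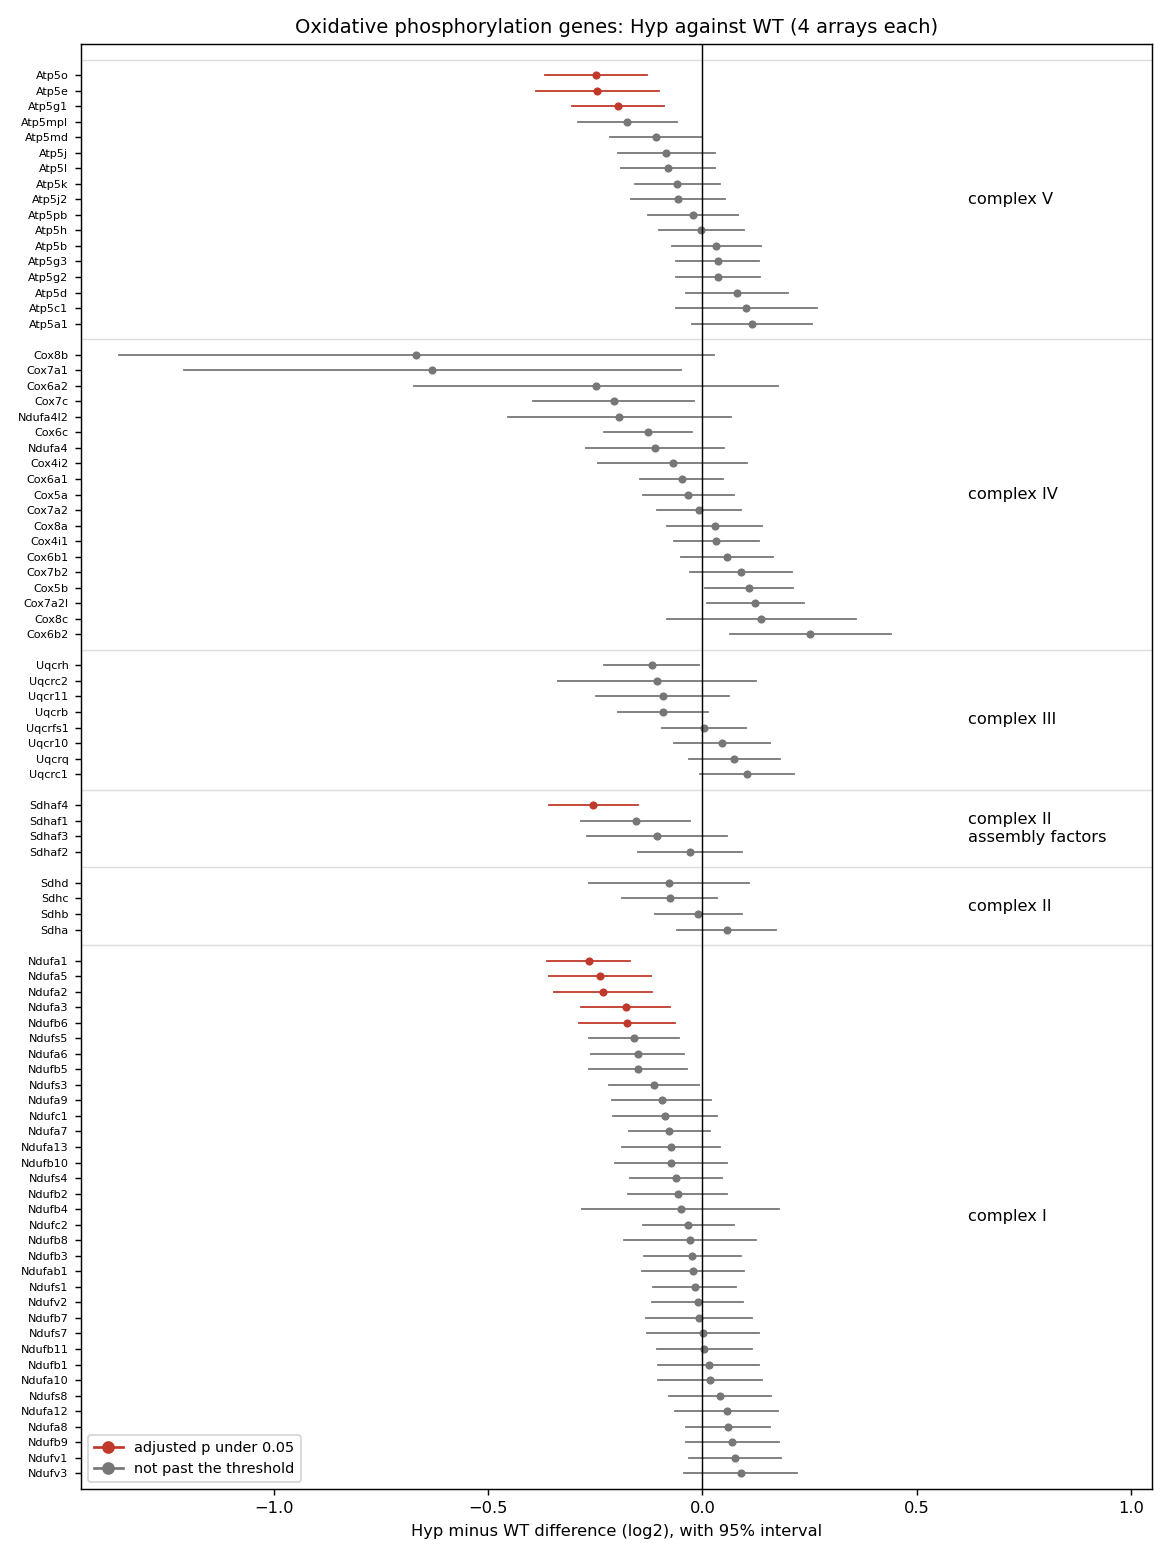
Difference between Hyp and WT (log2, x axis) with its 95% interval from limma for each of the 86 genes, grouped by complex, with 4 arrays per group. The 9 genes in red passed the threshold and all lie below 0; the 3 wide intervals at the top of complex IV belong to the muscle forms Cox8b, Cox7a1 and Cox6a2.

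**Figure D2:**
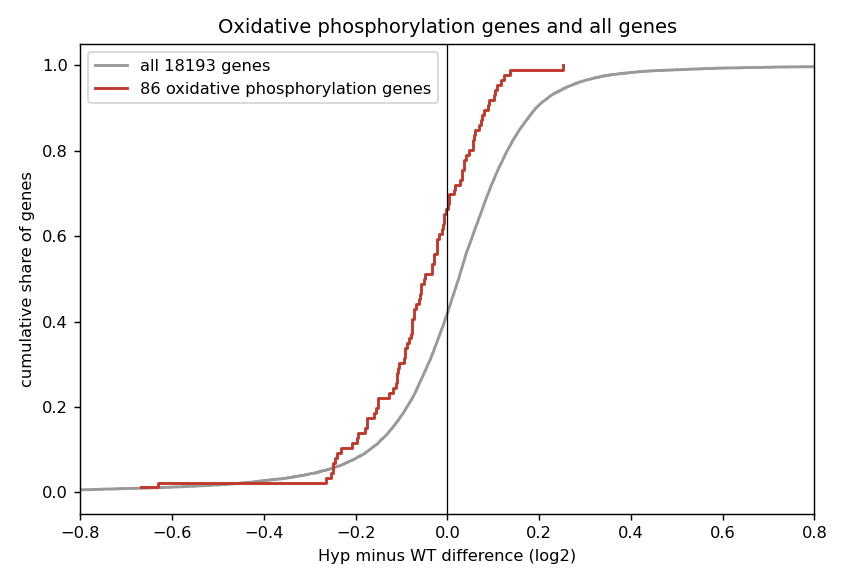
Cumulative share of genes (y axis) by difference between Hyp and WT (log2, x axis), for the 86 oxidative phosphorylation genes in red and all 18193 genes in grey. The red curve lies to the left of the grey one around 0, with medians of -0.050 and 0.025; the axis is cut at 0.8 on both sides.

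The count rests on several arrays. Without Hyp replicate 3 or without WT replicate 1, 5 of the 9 were still lower, and between 6 and 9 of the 86 were lower without any other single array. The 5 are 5.81% of the 86, beside 5.03% of all genes without Hyp replicate 3 and 4.42% without WT replicate 1. Without any other single array the shares were 6.98% to 10.5% of the 86, beside 4.69% to 6.34% of all genes. Ndufa1, Ndufa2, Ndufa5, Sdhaf4 and Atp5o passed whichever array was left out. Ndufa3 and Ndufb6 each passed in only 1 of the 8 repeats, Atp5e in 2 and Atp5g1 in 5, with adjusted p up to 0.0959, 0.12, 0.086 and 0.0682. All 9 differences stayed below 0 in these repeats. The arrays concerned are given with each gene. The probe sets of Ndufa1, Ndufa2, Atp5o and Atp5e all carry a suffix that marks probes which can be shared with other transcripts, so these 4 were not tested when such probe sets were left out. Of the other 5, Ndufa5, Sdhaf4 and Atp5g1 still passed, and Ndufa3 and Ndufb6 did not (limma adjusted p = 0.052 and 0.0985).

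In complex I, the NADH dehydrogenase, 5 of 34 genes fell and none rose, beside 6.32% and 6.54% of all genes. At an unadjusted p under 0.05, 9 were lower and none higher, beside 11.5% and 15.9% of all genes. The median difference was -0.042. Complex I has a core of subunits that carry the electron path and proton pumps, and a shell of accessory subunits needed for assembly and stability. All 5 that fell are accessory subunits (5 of 28), while none of the 6 core subunits measured here passed; that contrast was not tested. The number fell to 3 without Hyp replicates 1, 2 or 3 or WT replicates 1, 3 or 4, each left out alone.

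Ndufa1, an X-linked accessory subunit of the membrane arm, had the smallest p of the 86. Its values were 0.15, 0.11, 0.15 and 0.11 in WT replicates 1 to 4 and -0.16, -0.11, -0.12 and -0.15 in Hyp replicates 1 to 4. The 4 arrays of each genotype were within a narrow range and the groups did not overlap. Ndufa1 fell by 0.27 ± 0.044 (SE; limma adjusted p = 0.00283), with means of -0.13 ± 0.023 (SD, n = 4) in Hyp and 0.13 ± 0.024 in WT. It is measured by 1 probe set.

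Ndufa2 and Ndufa5 are accessory subunits of the arm that reaches into the matrix. Ndufa2 was at 0.071, 0.060, 0.096 and 0.12 in WT replicates 1 to 4 and -0.11, -0.060, -0.22 and -0.20 in Hyp replicates 1 to 4. Hyp replicates 3 and 4 were lowest, Hyp replicate 2 was nearest to WT, and no array overlapped with the other group. It fell by 0.23 ± 0.052 (SE; limma adjusted p = 0.0148). Ndufa5 was at 0.14, 0.091, 0.23 and 0.066 in WT replicates 1 to 4 and -0.065, -0.12, -0.17 and -0.075 in Hyp replicates 1 to 4. WT replicate 3 stood highest and the lowest WT array was above the highest Hyp array. Ndufa5 fell by 0.24 ± 0.054 (SE; limma adjusted p = 0.0153), and its 2 probe sets were at -0.23 and -0.25 (limma adjusted p = 0.0834 and 0.0318 over all probe sets).

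Ndufa3 and Ndufb6 are accessory subunits of the membrane arm. Ndufa3 was at 0.11, 0.011, 0.11 and 0.071 in WT replicates 1 to 4 and -0.069, -0.083, -0.13 and -0.13 in Hyp replicates 1 to 4. The WT arrays were all above the Hyp arrays, with WT replicate 2 close to 0. Ndufa3 fell by 0.18 ± 0.047 (SE; limma adjusted p = 0.0307), and of the fits that left out 1 array it passed only in that without WT replicate 2. Ndufb6 was at 0.11, 0.046, 0.086 and 0.11 in WT replicates 1 to 4 and -0.12, -0.053, -0.17 and -0.011 in Hyp replicates 1 to 4. Hyp replicate 4 was near 0 and the other Hyp arrays lower. It fell by 0.18 ± 0.051 (SE; limma adjusted p = 0.0461), the weakest of the 9 by p, and passed only when Hyp replicate 4 was left out. Neither of its 2 probe sets passed alone (limma adjusted p = 0.138 and 0.16).

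The other complex I genes had differences between -0.16 and 0.089. Next to the threshold were Ndufs5 at -0.16 ± 0.048 (SE; limma adjusted p = 0.0516), Ndufa6 at -0.15 ± 0.049 (SE; limma adjusted p = 0.0688) and Ndufb5 at -0.15 ± 0.052 (SE; limma adjusted p = 0.0831), all accessory. Of the core subunits, Ndufs3 was at -0.11 ± 0.047 (SE; limma adjusted p = 0.151). The others, which bind the flavin and iron-sulfur clusters, were Ndufs1 at -0.018, Ndufs7 at 0.0013, Ndufs8 at 0.041, Ndufv1 at 0.075 and Ndufv2 at -0.011. Among the other Ndufa accessory subunits were Ndufa9 at -0.095, Ndufa7 at -0.078, Ndufa13 at -0.073, Ndufab1 at -0.022, Ndufa10 at 0.017, Ndufa12 at 0.057 and Ndufa8 at 0.059. Of the Ndufb family, which lies in the membrane arm, the rest were Ndufb10 at -0.073, Ndufb2 at -0.057, Ndufb4 at -0.051, Ndufb8 at -0.030, Ndufb3 at -0.023, Ndufb7 at -0.0080, Ndufb11 at 0.0042, Ndufb1 at 0.015 and Ndufb9 at 0.070. The remaining accessory subunits were Ndufc1 at -0.088, Ndufs4 at -0.062 and Ndufc2 at -0.034. None of these 19 passed, with adjusted p from 0.268 to 0.969. The highest difference of the complex was in Ndufv3, an accessory subunit of the matrix arm. It was at -0.049, -0.086, 0.062 and -0.055 in WT replicates 1 to 4 and 0.029, 0.19, -0.029 and 0.040 in Hyp replicates 1 to 4. The groups overlapped, and the difference was 0.089 ± 0.060 (SE; limma adjusted p = 0.376).

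**Figure D3:**
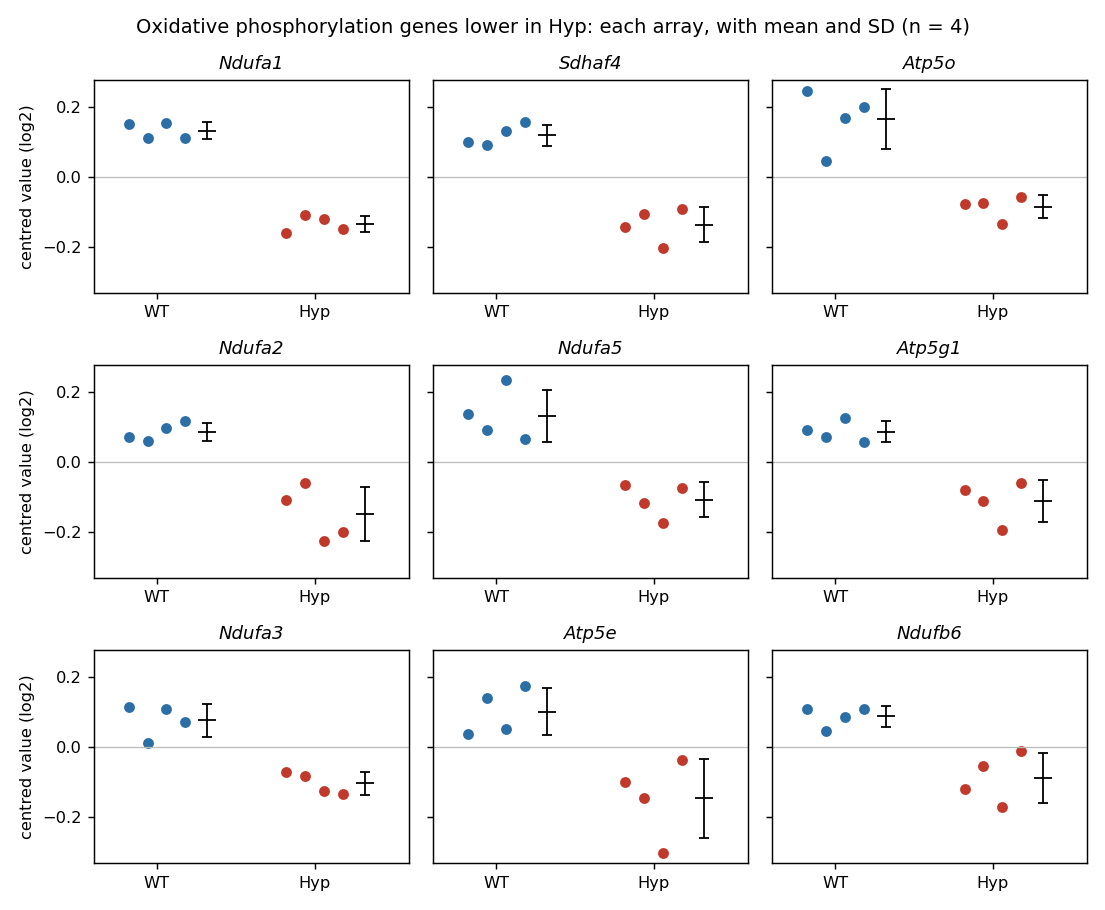
Centred log2 values (y axis) of the 9 genes that were lower in Hyp bone, with 1 point per array, 4 arrays per genotype, and the mean with its SD beside them. In each of the 9 panels every Hyp array is below every WT array, and the group means lie at most 0.27 apart.

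Complex II, succinate dehydrogenase, links the citric acid cycle to the chain and is encoded by 4 nuclear genes. None passed, and none did so at an unadjusted p under 0.05 in limma. Sdha, which binds the flavin, and Sdhb, which holds the iron-sulfur clusters, were at 0.056 ± 0.052 (SE; limma adjusted p = 0.529) and -0.0093 ± 0.046 (SE; limma adjusted p = 0.922). The membrane anchors Sdhc and Sdhd were at -0.076 ± 0.050 (SE; limma adjusted p = 0.362) and -0.078 ± 0.085 (SE; limma adjusted p = 0.6). Sdhd had the widest spread of the 4. Its values were -0.041, -0.16, 0.017 and 0.16 in WT replicates 1 to 4 and -0.28, -0.024, -0.062 and 0.040 in Hyp replicates 1 to 4. Hyp replicate 1 was lowest and WT replicate 4 highest, and the groups overlapped. Sdha, at the upper end of the complex, was at 0.023, -0.046, 0.011 and -0.13 in WT replicates 1 to 4 and 0.026, 0.052, 0.042 and -0.040 in Hyp replicates 1 to 4, again with overlap.

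Of the 4 assembly factors of complex II, 1 fell and none rose, and at an unadjusted p under 0.05 2 were lower and none higher. Sdhaf4 binds the flavin-carrying Sdha before it joins Sdhb. It was at 0.10, 0.090, 0.13 and 0.16 in WT replicates 1 to 4 and -0.14, -0.11, -0.20 and -0.090 in Hyp replicates 1 to 4. No Hyp array reached a WT array. Sdhaf4 fell by 0.25 ± 0.047 (SE; limma adjusted p = 0.00571), from a mean of 0.12 ± 0.030 (SD, n = 4) in WT to -0.14 ± 0.050 in Hyp. Sdhaf1, which serves the iron-sulfur clusters of Sdhb, was at -0.16 ± 0.058 (SE; limma adjusted p = 0.108), and Sdhaf3, with a like role, at -0.11 ± 0.074 (SE; limma adjusted p = 0.39). Sdhaf2, which helps to attach the flavin to Sdha, was at -0.0050, 0.11, -0.057 and 0.055 in WT replicates 1 to 4 and -0.014, 0.084, -0.059 and -0.023 in Hyp replicates 1 to 4. Its groups overlapped, with a difference of -0.029 ± 0.055 (SE; limma adjusted p = 0.784).

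Complex III, the cytochrome bc1 complex, had 8 genes, none of which passed (at an unadjusted p under 0.05, 1 was lower and none higher in limma). Uqcrfs1, the Rieske iron-sulfur protein and the catalytic subunit among them, was at 0.0030 ± 0.044 (SE; limma adjusted p = 0.974). The lowest difference was in Uqcrh, the hinge protein near cytochrome c1. It was at 0.054, 0.12, -0.0097 and 0.078 in WT replicates 1 to 4 and 0.0097, -0.092, -0.091 and -0.059 in Hyp replicates 1 to 4. WT replicate 3 lay among the Hyp arrays, and the difference was -0.12 ± 0.050 (SE; limma adjusted p = 0.152). The highest was in Uqcrc1, a core protein of the matrix side, at -0.11, 0.0052, -0.0099 and -0.079 in WT replicates 1 to 4 and 0.088, 0.052, -0.0052 and 0.089 in Hyp replicates 1 to 4. The groups overlapped, and the difference was 0.10 ± 0.050 (SE; limma adjusted p = 0.202). Between these were Uqcrc2 at -0.11, Uqcr11 at -0.093, Uqcrb at -0.092, Uqcr10 at 0.046 and Uqcrq at 0.074, with adjusted p from 0.239 to 0.6.

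Complex IV, cytochrome c oxidase, had 19 genes and no call (limma; at an unadjusted p under 0.05, 3 were lower and 3 higher). It is the complex with the most tissue-specific subunits, so its genes are given by type. The 10 widely expressed subunits were between -0.21 (Cox7c) and 0.11 (Cox5b), with a median of -0.020 and adjusted p of at least 0.102. Cox6c was at -0.13 ± 0.046 (SE; limma adjusted p = 0.102) with every Hyp array below every WT array, and Cox5b, which binds zinc, was at 0.11 ± 0.046 (SE; limma adjusted p = 0.161) with every Hyp array above every WT array. Cox5a was at -0.033 and Ndufa4 at -0.11. Cox4i1, the largest nuclear-encoded subunit, was at -0.022, -0.036, 0.020 and -0.020 in WT replicates 1 to 4 and -0.033, 0.056, 0.026 and 0.020 in Hyp replicates 1 to 4. All 8 arrays lay close together, and the difference was 0.032 ± 0.045 (SE; limma adjusted p = 0.696).

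The heart and skeletal muscle forms Cox6a2, Cox7a1 and Cox8b had the lowest differences of the complex, at -0.25, -0.63 and -0.67, and did not pass (adjusted p from 0.149 to 0.444). Cox7a1 was at 0.081, 0.25, 1.45 and 0.038 in WT replicates 1 to 4 and -0.17, -0.34, -0.15 and -0.038 in Hyp replicates 1 to 4. WT replicate 3 stood far above the other 7 arrays, and no Hyp array reached a WT array. Cox8b was at -0.096, 0.21, 1.64 and 0.18 in WT replicates 1 to 4 and 0.096, -0.48, -0.12 and -0.23 in Hyp replicates 1 to 4, and Cox6a2 at -0.26, -0.058, 0.75 and 0.076 in WT replicates 1 to 4 and 0.066, -0.40, 0.057 and -0.21 in Hyp replicates 1 to 4. In both, WT replicate 3 was highest and Hyp replicate 2 lowest, and the groups overlapped. The muscle marker mean had the same highest and lowest array. None of its 32 genes passed (3 were lower and 1 higher at an unadjusted p under 0.05), and it spanned -0.82 to 0.13 in Hyp and -0.38 to 1.69 in WT.

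Without WT replicate 3, Cox7a1 was at -0.30 and passed (limma adjusted p = 0.0352), Cox8b was at -0.28 (0.175) and Cox6a2 at -0.040 (0.864). With the muscle mean as a covariate they were at -0.30, -0.24 and 0.012, and none passed (adjusted p = 0.186, 0.143 and 0.926). The difference of each of the 3 over all 8 arrays was more than 1.5 times as large as without this 1 WT array.

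The widely expressed partners of these forms varied less between arrays. Cox6a1 was at -0.0067, 0.027, 0.070 and 0.022 in WT replicates 1 to 4 and -0.019, -0.0023, -0.042 and -0.019 in Hyp replicates 1 to 4. Cox7a2 was at 0.019, -0.019, 0.045 and -0.026 in WT replicates 1 to 4 and -0.0053, 0.028, -0.0098 and -0.025 in Hyp replicates 1 to 4. Cox8a was at -0.0036, 0.014, -0.091 and 0.016 in WT replicates 1 to 4 and 0.031, 0.050, 0.035 and -0.068 in Hyp replicates 1 to 4. WT replicate 3 was the highest array for Cox6a1 and Cox7a2 and the lowest for Cox8a, at most 0.091 from 0, and in all 3 the groups overlapped. Their differences were -0.048 ± 0.044 (SE; limma adjusted p = 0.517), -0.0079 ± 0.044 (SE; limma adjusted p = 0.932) and 0.028 ± 0.050 (SE; limma adjusted p = 0.765).

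**Figure D4:**
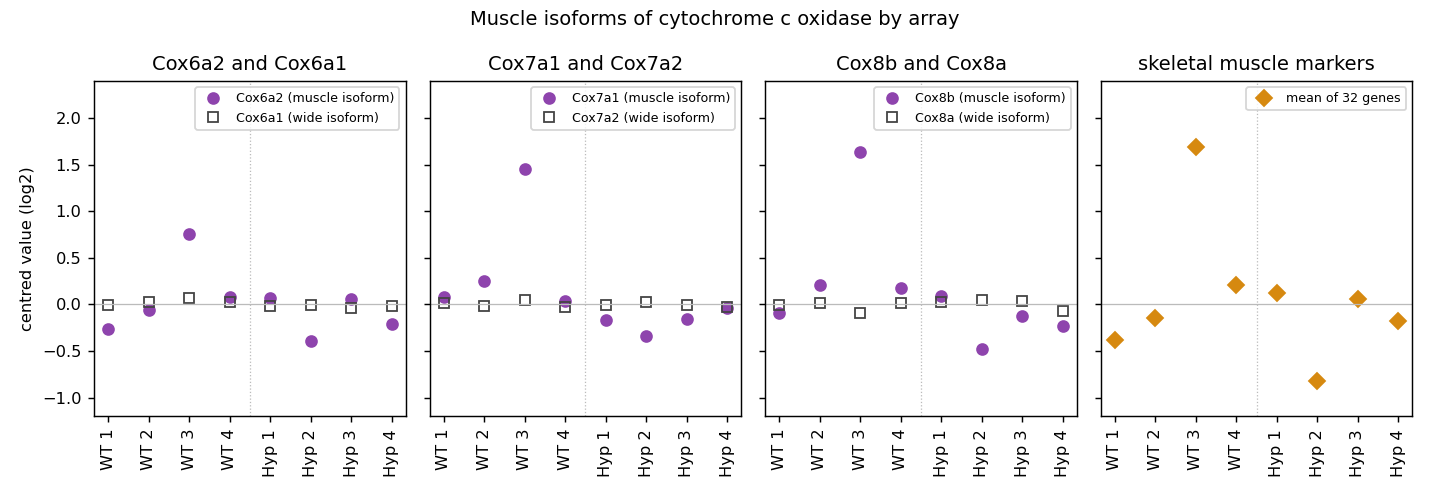
Centred log2 values (y axis) in each of the 8 arrays (x axis) for the 3 muscle forms of complex IV subunits (filled circles), their widely expressed partners (open squares) and the mean of 32 skeletal muscle genes (diamonds). WT replicate 3 is the highest array for each muscle form and for the muscle mean, at 0.75 to 1.69, while the partners stay between -0.091 and 0.070.

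Other forms of complex IV subunits are restricted to testis or respond to oxygen. Cox6b2, a testis form of Cox6b1, had the highest difference of the 86. It was at -0.26, -0.21, 0.033 and -0.084 in WT replicates 1 to 4 and 0.057, -0.033, 0.30 and 0.16 in Hyp replicates 1 to 4. Hyp replicate 2 and WT replicate 3 lay on the other group's side of 0, so the groups overlapped, and the difference was 0.25 ± 0.085 (SE; limma adjusted p = 0.0791). Without WT replicate 3 it rose by 0.31 (limma adjusted p = 0.0351), and with the muscle mean as covariate by 0.33 (adjusted p = 0.0144). Its widely expressed partner Cox6b1 was at -0.073, -0.068, 0.038 and -0.043 in WT replicates 1 to 4 and 0.027, 0.071, -0.024 and 0.011 in Hyp replicates 1 to 4. The groups overlapped, with a difference of 0.058 ± 0.048 (SE; limma adjusted p = 0.485).

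Cox4i2, a lung form of Cox4i1 that is induced at low oxygen, was at -0.047, 0.29, -0.043 and 0.14 in WT replicates 1 to 4 and -0.010, -0.045, 0.010 and 0.11 in Hyp replicates 1 to 4. WT replicate 2 was highest, the groups overlapped, and the difference was -0.069 ± 0.079 (SE; limma adjusted p = 0.617). Cox7b2, known from testis, was at 0.014, -0.063, -0.15 and -0.00061 in WT replicates 1 to 4 and 0.088, -0.0099, 0.082 and 0.00061 in Hyp replicates 1 to 4, with a difference of 0.090 ± 0.054 (SE; limma adjusted p = 0.316) and overlap between the groups. Cox8c, also of testis, was at 0.14 ± 0.10 (SE; limma adjusted p = 0.415). Ndufa4l2, a target of the hypoxia-inducible factors, was at -0.19 ± 0.12 (SE; limma adjusted p = 0.322). Cox7a2l, which joins complexes III and IV into supercomplexes, was at 0.12 ± 0.051 (SE; limma adjusted p = 0.144), and every Hyp array was above every WT array.

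In complex V, the ATP synthase, 3 of 17 genes fell and none rose, beside 6.32% and 6.54% of all genes. At an unadjusted p under 0.05, 5 were lower and none higher, beside 11.5% and 15.9% of all genes. The median difference was -0.057. The number of genes that fell was 1 without Hyp replicates 2 or 3 or WT replicate 1, each alone, and 4 without WT replicate 3. The 3 genes belong to different parts of the enzyme: Atp5o (OSCP) ties the catalytic head to the peripheral stalk, Atp5e is the small epsilon subunit of the central stalk, and Atp5g1 is 1 of 3 genes for the c subunit of the rotor ring.

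Atp5o was at 0.24, 0.046, 0.17 and 0.20 in WT replicates 1 to 4 and -0.077, -0.073, -0.13 and -0.057 in Hyp replicates 1 to 4. WT replicate 2 was nearest to the Hyp arrays and the groups did not overlap. Atp5o fell by 0.25 ± 0.054 (SE; limma adjusted p = 0.0132) on the mean of its 2 probe sets, which differed. One of them was at -0.47 ± 0.086 (SE; limma adjusted p = 0.00877) and the other at -0.026 ± 0.056 (SE; limma adjusted p = 0.828), so the call rests on 1 probe set. Atp5e was at 0.036, 0.14, 0.051 and 0.17 in WT replicates 1 to 4 and -0.10, -0.14, -0.30 and -0.036 in Hyp replicates 1 to 4. Hyp replicate 3 was lowest and Hyp replicate 4 nearest to WT. It fell by 0.25 ± 0.065 (SE; limma adjusted p = 0.0317) and, with 1 array left out, passed only without Hyp replicate 4 or without WT replicate 3. Its 1 probe set did not pass in the fit over all probe sets (limma adjusted p = 0.0679).

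The 3 genes of the c subunit encode the same mature protein behind different import peptides. Atp5g1 was at 0.092, 0.070, 0.12 and 0.057 in WT replicates 1 to 4 and -0.080, -0.11, -0.19 and -0.059 in Hyp replicates 1 to 4. No array overlapped with the other group. It fell by 0.20 ± 0.049 (SE; limma adjusted p = 0.024), and its 2 probe sets were at -0.19 and -0.20. Neither passed alone (limma adjusted p = 0.0737 and 0.0691 over all probe sets). It did not pass with the muscle covariate, nor without Hyp replicate 2, Hyp replicate 3 or WT replicate 1 (limma adjusted p from 0.0546 to 0.0682). Atp5g2 was at -0.026, -0.066, 0.022 and -0.052 in WT replicates 1 to 4 and -0.0075, 0.00011, 0.010 and 0.020 in Hyp replicates 1 to 4, and Atp5g3 at -0.072, -0.014, 0.0036 and -0.026 in WT replicates 1 to 4 and 0.014, 0.021, -0.0013 and 0.0013 in Hyp replicates 1 to 4. Both stayed close to 0 in all arrays, with differences of 0.036 ± 0.044 (SE; limma adjusted p = 0.648) and 0.036 ± 0.044 (SE; limma adjusted p = 0.648). Whether Atp5g1 differs from them in its response was not tested.

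Of the other F1 subunits, Atp5a1 and Atp5b form the catalytic ring. Atp5a1 had the highest difference of the complex. It was at -0.071, -0.15, 0.097 and -0.11 in WT replicates 1 to 4 and -0.015, 0.069, 0.13 and 0.039 in Hyp replicates 1 to 4. WT replicate 3 lay within the Hyp range, and the difference was 0.12 ± 0.063 (SE; limma adjusted p = 0.268). Atp5b, and Atp5c1 and Atp5d of the central stalk, were at 0.032, 0.10 and 0.081 (adjusted p from 0.371 to 0.713). The 5 small subunits of the membrane part were all below 0, from -0.18 (Atp5mpl, adjusted p = 0.0515) to -0.057 (Atp5j2), and none passed. Between them lay Atp5k at -0.059, Atp5l at -0.080 and Atp5md at -0.11. In the peripheral stalk, beside Atp5o, Atp5h was at -0.0030, Atp5j at -0.084 and Atp5pb at -0.022, with adjusted p of at least 0.32.

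By probe set, 9 of the 175 that measure these genes were lower and none higher (limma, adjusted over 45037 probe sets), beside 3.91% lower and 3.22% higher of all probe sets. They belong to 9 genes, of which 6 are among the 9 lower on the gene mean and 3 are not. The 3 are Ndufb2, Uqcrb and Cox7c, named after their values were seen, and in each the probe sets differed. Uqcrb was at -0.28 ± 0.059 (SE; limma adjusted p = 0.0193) at 1 probe set and 0.092 ± 0.058 (SE; limma adjusted p = 0.397) at the other. Cox7c was at -0.40 ± 0.086 (SE; limma adjusted p = 0.022) and -0.019 ± 0.10 (SE; limma adjusted p = 0.936). Ndufb2 was at -0.22 ± 0.055 (SE; limma adjusted p = 0.0387) at 1 of its 3 and at -0.16 and 0.21 at the others. Of the 51 genes with more than 1 probe set, 28 had all of them on the same side of 0.

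Genes around the chain were described from lists. Of 39 other assembly factors (median -0.051), 10 were lower and none higher at an unadjusted p under 0.05, beside 11.5% and 15.9%. At the adjusted threshold 3 fell and none rose, beside 6.32% and 6.54% of all genes. They were Ndufaf2, a complex I assembly factor, which fell by 0.31 ± 0.060 (SE; limma adjusted p = 0.00667), Ttc19, of complex III, by 0.24 ± 0.048 (SE; limma adjusted p = 0.00982), and Tmem70, of ATP synthase, by 0.22 ± 0.057 (SE; limma adjusted p = 0.0295). Of 76 mitochondrial ribosomal proteins 2 fell and none rose, beside 6.32% and 6.54% of all genes, with a median of -0.019. At an unadjusted p under 0.05, 9 were lower and 3 higher, beside 11.5% and 15.9% of all genes. The 2 that fell were Mrps28, by 0.42 ± 0.053 (SE; limma adjusted p = 0.000608), and Mrpl18, by 0.24 ± 0.067 (SE; limma adjusted p = 0.0374). Among 16 genes of the citric acid cycle and pyruvate dehydrogenase, Suclg1, a subunit of succinyl-CoA ligase, fell by 0.18 ± 0.046 (SE; limma adjusted p = 0.0282) and the others did not pass.

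The regulators of mitochondrial genes, 18 in all and among them Ppargc1a, Esrra, Nrf1, Gabpa, Tfam and Yy1, did not pass (limma; 1 was lower and 1 higher at an unadjusted p under 0.05) and had a median of 0.015. Nor did any of 12 genes of fatty acid oxidation (1 lower and none higher at an unadjusted p under 0.05). None passed of 6 genes for cytochrome c, cytochrome c1 (Cyc1) and the flavoproteins that feed the chain (1 higher and none lower at that unadjusted p). Cyc1 is a subunit of complex III that the rule by name leaves out. Of 12 carriers and porins 1 rose, Vdac2, a porin of the outer membrane, by 0.16 ± 0.044 (SE; limma adjusted p = 0.0354). A single gene of the mitochondrial genome was measured under its own symbol, ND5, which encodes a complex I subunit. It was at -0.14, -0.098, -0.19 and -0.047 in WT replicates 1 to 4 and 0.080, 0.047, 0.059 and 0.16 in Hyp replicates 1 to 4. The groups did not overlap, and ND5 rose by 0.20 ± 0.051 (SE; limma adjusted p = 0.0253). The nuclear subunits of the same complex that passed all fell.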

How the data were processed

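Total RNA was labelled with biotin and hybridised to 1-colour arrays, per the labels' protocols. The deposited values came from RMA (version not given), per the submitters' processing notes, and RMA gives log2 values. The authors' deposited log2 values have a median of 0 over the 8 arrays for every probe set (within 5e-07), a centring that is not given in the sources used here, and the log base is not stated. Precision is limited by the number of arrays; the median SE over genes was 0.065.

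After leaving out 64 control probe sets of 45101, 45037 were tested. The platform annotation gave 1 symbol for 34945 probe sets, several for 932 and none here for 9160, and symbols were updated through RefSeq identifiers (GRCm38.p6), found for 34741. Probe sets of a gene were averaged per array, and the 18193 genes were fitted in limma 3.58.1 (R 4.3.3; lmFit, eBayes, no covariate, two-sided, Benjamini-Hochberg over all genes, threshold 0.05); probe sets were fitted in the same way. Differences are Hyp minus WT. SE and 95% intervals come from the fit, and SD is between the 4 arrays of a group. The procedure was tested on simulated data.

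The members and lists were chosen with earlier results of these data known. Values per array are given for genes past the threshold, isoform pairs, and the highest and lowest gene of each complex; from the lists of mitochondrial genes, up to 4 genes past the threshold with the smallest p. Other members named were chosen after their values were seen. Marker lists are given by counts. Alternatives were other scalings, array weights, a robust prior, other rules for probe sets, filter and threshold, the replicate block, a muscle covariate, and arrays left out.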

Additional observations from a re-analysis of the deposited data

Results flagged for a closer look

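In 94 groups of 4 arrays (29 genes, 17 list means and the median of the 86 genes, in each genotype), 7 held an array far from the other 3 by the 95% critical value of Dixon's ratio. Chance gives about 1 in 20 such groups.

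Among WT arrays, Cox7a1 was at 1.45 in WT replicate 3, where the others were between 0.038 and 0.25. The mean of the mitochondrial carriers and porins, which include Ckmt2, a muscle creatine kinase that is also in the muscle list, was at 0.24 in the same array, with the others between -0.025 and 0.0043. The erythroid mean was at -0.32 in WT replicate 1 (others -0.15 to -0.13), as was the heart list at -0.071 (others -0.023 to -0.013).

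Among Hyp arrays, replicate 4 stood apart in 3 measures. Cox8a was at -0.068 there (others 0.031 to 0.050). The cytochrome c list mean was at 0.043 (others -0.016 to -0.013), and the mean of the regulators at 0.011 (others -0.0049 to -0.0022).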

How the results depend on the processing

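Of 21 alternatives, all kept the median difference of those of the 86 genes that were tested below 0, between -0.20 and -0.028. The differences of the 9 genes that passed stayed below 0 wherever they were tested. Ndufa1 and Sdhaf4 passed in every alternative that tested them (20 and 21). Against 9 genes lower in Hyp, the count was 2 at a threshold of 0.01 (2.33%, beside 3.40% of all genes). It was 4 without both WT replicate 3 and Hyp replicate 2 (4.65%, beside 5.20%). In these settings the share was below that of all genes, and the genes counted are all among the 9. The count was 13 with quantile normalization (15.1%, beside 7.02% of all genes). With the median of each array subtracted it was 11 (12.8%, beside 6.78%). With array weights 12.8% of the 86 were lower (7.10% of all genes), and at 0.10 15.1% (8.51%). The count was 5 with only probe sets that lack a shared-probe suffix (7.14% of the 70 of the 86 tested, beside 5.50% of all genes). Of these, 3 are among the 9 and the others are Uqcrb and Cox7c. A single higher gene, Cox6b2, appeared with the replicate block, array weights, the muscle covariate, a threshold of 0.10 and without both WT replicate 3 and Hyp replicate 2 (1 each, against none). The count for complex I, 5 above, was 3 with the replicate block, the probe set of largest SD, the genes of smallest SD left out and the muscle covariate, 1 without shared-probe suffix and at a threshold of 0.01, 8 at 0.10 and 2 without both arrays. That for complex V, 3 above, was 1 without shared-probe suffix, with the probe set of largest SD and without both arrays, and 0 at 0.01. The median of the members was -0.20 with the genes of smallest SD left out, where 9096 genes and 21 of the 86 were tested. That SD was taken over all 8 arrays, so it includes the Hyp minus WT difference, and the filter favours genes that differ. The 21 hold 7 of the 9, so this median cannot be set beside that of the 86. The number of all genes higher in Hyp was 407 and that of all genes lower in Hyp 618 at 0.01, and 1891 were higher at 0.10. Leaving out 1 array gave 605 to 1437 higher and 805 to 1153 lower genes of all, 5 to 9 lower and 0 to 1 higher of the 86, a median of -0.053 to -0.028, 3 to 5 lower in complex I and 1 to 4 in complex V. The cause of these changes was not tested, beyond the stricter threshold and the fewer genes or arrays. Whether the replicate numbers pair the arrays cannot be settled from 4 numbers. Deviations from the group means correlated between -0.010 and 0.18 for them, and 4 of 8 arrays correlated best with their own number. With the replicate block 6 of the 86 were lower (6.98%, beside 5.84% of all genes). A filter on level was not run, since centred values hold no level.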

Other observations

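The 10 probe sets annotated to several genes, of which at least 1 carries a name of these families, were left out above. Their differences ran from -0.28 to 0.31, with 7 of 10 below 0, and 1 was lower (limma adjusted p = 0.0376) and none higher.

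RNA quality can be compared through the 3′ and 5′ control probe sets, in which the groups overlapped. The 3′ minus 5′ difference of the Gapdh control probe sets was 0.056 ± 0.10 (SD, n = 4) in Hyp and -0.024 ± 0.12 in WT (two-sided exact permutation p = 0.286), and for Actb 0.013 ± 0.042 and 0.031 ± 0.049 (exact permutation p = 0.457). The smallest p that 4 against 4 arrays allow is 0.029.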
